A study of Mus musculus with 32 samples.

Results

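A set of 10 genes of the Wnt pathway was followed in mouse spinal astrocytes and in whole lumbar cord. They are 7 Frizzled receptor genes (Fzd1, Fzd2, Fzd3, Fzd5, Fzd7, Fzd9 and Fzd10), the secreted modulators Dkk3 and Sfrp1, and the intracellular inhibitor and pathway target Axin2. They are 10 of the 55938 genes in the deposited table. Each was found by matching its Ensembl identifier to its symbol, and all 10 passed the filter on low counts in every fit. The genes were proposed with results from these same libraries in view, and which values were looked at is not recorded. Differences between pull-down and whole cord, and between injury states, are therefore given for these 10 genes as descriptions. Where the number of them past the threshold used over all genes is stated, the share of all genes past it stands beside, and nothing is read from the count.

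The animals carried Aldhl1l-CreER;Rpl22-HA, in the spelling of the labels. The Aldh1l1 gene, mainly active in astrocytes, drives a CreER recombinase that adds an HA tag to the ribosomal protein Rpl22. Tagged ribosomes were pulled down from lumbar cord with an antibody to HA, which gave the Trap libraries. RNA of the whole homogenised lumbar cord gave the Input libraries. Both genotype and tag were shared by every group, including the uninjured controls with no fracture. The other groups were sampled 3, 5 or 7 weeks after a fracture that models Complex Regional Pain Syndrome, a chronic pain condition of a limb. Each sex and state had 3 Trap libraries and 1 Input library, or 24 Trap and 8 Input in all. The age of the animals and the CreER induction are not given in the sources used here. Nothing in the labels ties each library to its own animal, and the spread behind a p-value here is that between libraries, which may be partly technical.

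The libraries held 17124034 to 23189228 assigned fragments, so a level of 1 CPM, the unit of counts scaled to library size, rests on about 21 fragments. CPM here are scaled between libraries by the trimmed mean of M-values (TMM). In the Trap libraries the summed level of 12 astrocyte markers was 824% of that in Input. All 12 were called higher, and Aldh1l1 stood at 557.3 to 843.7 CPM in Trap against 52.47 to 66.18 in Input. The summed levels of 10 neuronal, 8 oligodendrocyte, 8 microglial and 8 endothelial markers were 7%, 22.2%, 21.5% and 12.1% of those in Input. The summed blood markers were 524% and the mural and fibroblast markers 372% of Input. In the latter list 3 of 7 genes were called higher and 4 lower. The sum of 5 ependymal markers was 119% of Input, with 2 called higher and 3 lower. The sum of 4 Schwann cell markers was 79.2% of Input, with 0 called higher and 2 lower. In all, 2 Trap libraries stood apart in earlier results of these data. Female 3 weeks replicate 3 had the lowest astrocyte marker sum, 51560 CPM, and the highest neuronal sum, 936.9 CPM. Male 7 weeks replicate 2 had a neuronal sum of 766.2 CPM and a tilt with gene length that is given with Fzd3.

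Wnt proteins are secreted, lipid-modified ligands that bind the outer cysteine-rich domain of Frizzled receptors, which cross the membrane repeatedly. With the co-receptors Lrp5 and Lrp6, Frizzleds stop the Axin, Apc and Gsk3 complex from marking beta-catenin for destruction, and beta-catenin then switches on targets through TCF/LEF factors. Frizzleds also act without beta-catenin, in planar cell polarity and calcium signalling. Secreted Frizzled-related proteins such as Sfrp1 carry a Frizzled-like domain and can bind Wnts, while Dickkopf proteins act on Lrp co-receptors, although Dkk3 is a divergent family member. Axin2 is both a brake on the pathway and one of its most widely used target genes. In the cord, Wnts pattern the embryonic neural tube, and Wnt7a and Wnt7b act on vessels and oligodendrocyte precursors.

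The promoter windows of Axin2 and Fzd7 show how the classic target gene and a receptor gene compare over a short stretch of their own DNA. RefSeq promoter windows (GRCm38.p6) were at hand for 6 of the 10 genes: Fzd1, Fzd5, Fzd7, Fzd9, Fzd10 and Axin2. Each window of 300 bases was searched on both strands for the letters of the TCF/LEF motif, CTTTG followed by AA, AT, TA or TT. The 250 bases before the start are printed from 5′ to 3′ on the gene's strand, with matches in capitals. That stretch is chr11:108920099-108920348 on the plus strand for Axin2 and chr1:59481897-59482146 on the plus strand for Fzd7.
Axin2: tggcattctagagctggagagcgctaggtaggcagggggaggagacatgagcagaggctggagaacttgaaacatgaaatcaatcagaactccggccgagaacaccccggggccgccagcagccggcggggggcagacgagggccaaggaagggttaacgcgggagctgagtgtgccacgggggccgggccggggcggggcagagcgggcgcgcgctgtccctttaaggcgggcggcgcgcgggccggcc
Fzd7: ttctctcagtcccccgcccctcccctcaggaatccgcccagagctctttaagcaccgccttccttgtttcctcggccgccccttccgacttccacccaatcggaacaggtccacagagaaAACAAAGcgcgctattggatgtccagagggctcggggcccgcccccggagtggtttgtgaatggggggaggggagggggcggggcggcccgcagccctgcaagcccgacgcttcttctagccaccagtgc
Fzd7 held 1 match, AACAAAG, which is CTTTG followed by TT when read on the other strand. Axin2 and the other 4 genes held none in their windows. Only these 300 bases were searched, so matches elsewhere in or near the genes were not looked for. Of all 32851 promoter windows in the table, 16.9% held a match. The windows of these genes were rich in CpG, with 16 (Fzd1) to 53 (Fzd9) CpG pairs against a median of 7 over all windows. Of all windows, 34.6% held at least 15 CpG pairs and 18.4% at least 25.

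All 7 Frizzled genes had higher mean levels in the astrocyte pull-down than in whole cord, and Fzd1, Fzd2 and Fzd10 were the furthest above it. Of the 10 genes, 8 were called higher and 2 lower in Trap, where 87.9% of all 15913 genes tested were called (44.4% higher and 43.6% lower, edgeR quasi-likelihood test, adjusted p under 0.05). The Trap and Input ranges did not overlap for 8 of the 10 genes, which was also true of 56.6% of all genes tested. In bulk libraries, more cells of a type and more RNA per cell cannot be told apart.

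**Figure D1:**
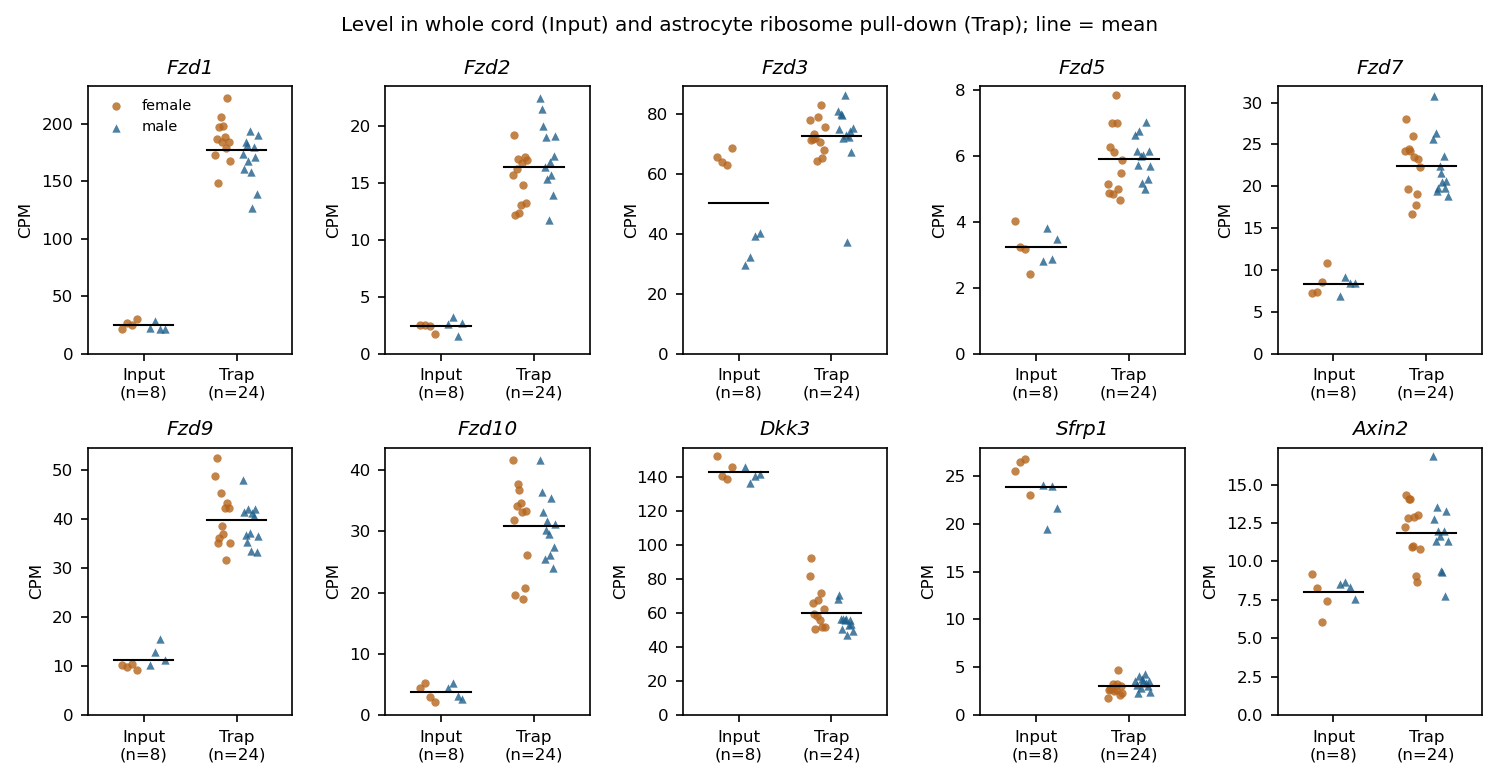
Level of each gene in the 8 Input and 24 Trap libraries, in TMM-scaled CPM on linear axes from 0; circles are female and triangles male libraries, and the line is the mean. The Frizzled genes and Axin2 have higher means in Trap, Dkk3 and Sfrp1 lie lower in Trap, and the Fzd3 Input libraries fall into separate female and male sets.

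Fzd1, which encodes a receptor for several Wnts and is a single-exon gene (chromosome 5, 4753839 to 4758035, minus strand, GRCm38), ran from 126.5 to 222.6 CPM in Trap, with a median of 180.2. In the 8 Input libraries it ran from 21.21 to 30.34, with a median of 23.57. Every Trap library lay above every Input library, and the fitted difference was 2.86 ± 0.07 (log2 ± SE). Fzd10, a receptor used in the developing dorsal neural tube, had 18.98 to 41.72 CPM in Trap (median 31.72) and 2.05 to 5.27 in Input (median 3.74). Its fitted difference was the highest of the 10, 3.06 ± 0.15. Fzd2, a receptor linked to Wnt5a signalling, had 11.72 to 22.45 CPM in Trap (median 16.54) and 1.53 to 3.20 in Input (median 2.48), a difference of 2.78 ± 0.11. For these 3 genes, the lowest Trap library stood well clear of the highest Input library.

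Fzd9 had 31.67 to 52.49 CPM in Trap (median 39.60) and 9.27 to 15.54 in Input (median 10.41), a difference of 1.83 ± 0.09. Fzd7, a receptor best known in stem and progenitor cells, had 16.69 to 30.78 CPM in Trap (median 22.32) and 6.84 to 10.81 in Input (median 8.40), a difference of 1.42 ± 0.09. These 2 genes were again fully separated, by smaller margins. Fzd5 was the scarcest of the 7 receptors in Trap, at 4.65 to 7.84 CPM in Trap (median 5.92) and 2.41 to 4.02 in Input (median 3.20), and differed by 0.87 ± 0.10. A TEC locus on the opposite strand, Gm38058, shares 1233 exon bases with Fzd5. Whether the counting used strand is not given in the sources used here, but Gm38058 itself had at most 1 fragment in any library.

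Fzd3, a receptor best known for axon guidance and planar cell polarity, was the only Frizzled gene whose Trap and Input libraries overlapped. It had 37.25 to 86.50 CPM in Trap (median 73.17) and 29.60 to 68.48 in Input (median 51.62), and its fitted difference was 0.55 ± 0.12. In 7 of 8 pairs of a Trap and an Input library numbered 1 of the same sex and state, the Trap library was the higher. The lowest Trap library was male 7 weeks replicate 2, in which genes with over 12 kb of exons were lower than in the other 2 libraries of its group by a median of −0.52 (log2) and genes under 2 kb higher by 0.38. The Input libraries of Fzd3 split by sex: the 4 female libraries had 68.48, 65.51, 64.08 and 63.06 CPM (uninjured, 3, 5 and 7 weeks) and the 4 male libraries 40.17, 29.60, 32.21 and 39.26. The Trap means of the sexes were nearly level: females had 72.65 ± 5.59 CPM and males 72.83 ± 12.29 (SD, 12 libraries of each sex). The log2 ratio of the Trap to the Input mean was thus 0.15 in females and 1.04 in males. Such a split was common in Input, where 41.5% of 16803 genes did not overlap between the 4 female and 4 male libraries, and it moved with gene length. The median male minus female difference in Input was 0.17 (log2) for genes with under 2 kb of exons and −0.34 for genes over 12 kb, and Fzd3 has 12804 bases of exons. The Input columns of the sexes also carry headers of different forms, so sex and library preparation cannot be told apart there.

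Compared per length, Fzd1 was the leading Frizzled gene in astrocytes. On the scale of CPM per kilobase of exons, the Trap means ± SD (n = 24) were 42.25 ± 5.06 for Fzd1, 17.37 ± 2.30 for Fzd9 and 9.50 ± 1.95 for Fzd10. The ranges of Fzd1 and Fzd9, and of Fzd9 and Fzd10, did not overlap. Fzd3 (5.68), Fzd7 (4.95), Fzd4 (4.93) and Fzd2 (4.48) followed, each overlapping its neighbour in range, as Fzd10 did with Fzd3. Below them came Fzd6 (2.36) and Fzd8 (1.80), which also overlapped, and then Fzd5 (0.85), clear of all others. Fzd4, Fzd6 and Fzd8, the remaining Frizzled genes, were also called higher in Trap, by 1.66 ± 0.09, 1.66 ± 0.10 and 0.86 ± 0.09 (log2 ± SE).

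The order was different in whole cord. Fzd1 was still at the top, with 5.83 ± 0.84 CPM per kilobase (SD, n = 8), but its range overlapped that of Fzd9 (4.90 ± 0.89), and Fzd3 came next (3.93 ± 1.28). Fzd1 made up 44.8% ± 3.06 of the summed Frizzled level in Trap and 26.4% ± 2.61 in Input (SD). Fzd10 made up 10.1% ± 1.64 and 5.23% ± 1.72, and Fzd3 6.05% ± 0.78 and 17.7% ± 5.11. Fzd1 and Fzd10 therefore took a higher share, and Fzd3 a lower share, of the Frizzled sum in astrocyte ribosomes.

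**Figure D2:**
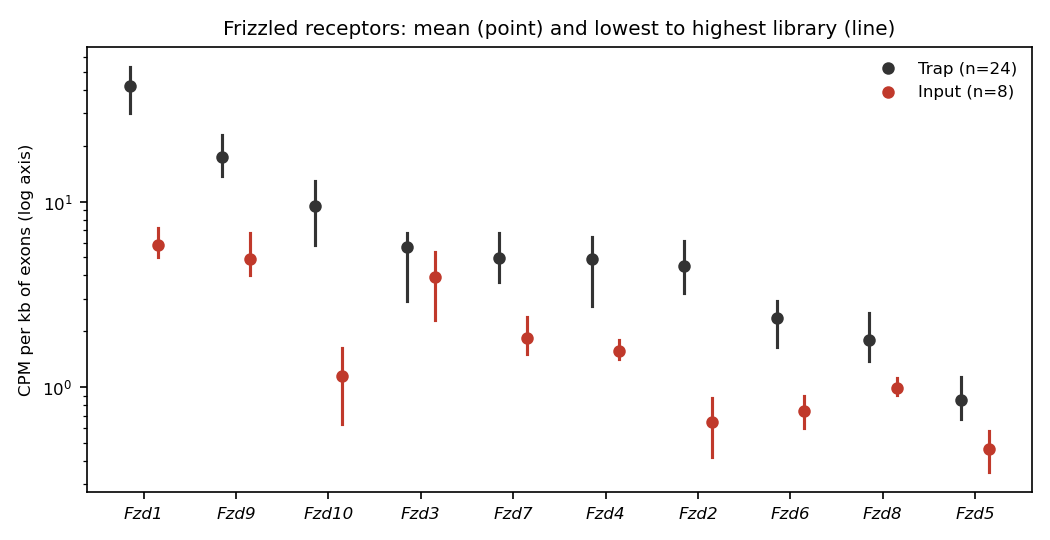
Level of the 10 Frizzled genes in CPM per kilobase of exons, on a log axis; points are means and lines run from the lowest to the highest library (24 Trap in black, 8 Input in red). Fzd1, Fzd9 and Fzd10 lead in Trap at 42.25, 17.37 and 9.50, and Fzd5 is lowest in both kinds of library.

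The secreted modulators stood on the other side. Dkk3 (chromosome 7) had 47.29 to 92.58 CPM in Trap (median 56.55) and 136.8 to 152.2 in Input (median 141.2), a difference of −1.27 ± 0.06. Sfrp1 (chromosome 8) had 1.83 to 4.75 CPM in Trap (median 3.03) and 19.45 to 26.74 in Input (median 24.04), a difference of −2.97 ± 0.09. No Trap library reached the lowest Input library for either gene. The Trap mean was 42.1% of the Input mean for Dkk3 and 12.8% for Sfrp1. The neuronal and oligodendrocyte marker sums in Trap were 7% and 22.2% of those in Input. The part of other cell types in these levels was not tested.

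Axin2 (chromosome 11, 108920349 to 108950783, plus strand) was slightly above whole cord. It had 7.74 to 16.87 CPM in Trap (median 11.96) and 6.03 to 9.18 in Input (median 8.28), and the fitted difference was 0.57 ± 0.09. The ranges overlapped, although in all 8 pairs of a Trap and an Input library numbered 1 of the same sex and state, the Trap library was the higher. The antisense gene Gm11670 shares 209 exon bases with Axin2 and had at most 1 fragment in any library.

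Of 85 other Wnt pathway genes, 68 passed the filter in Trap against Input, and 36 were called higher, 28 lower and 4 neither way. Their median difference was 0.39 (log2) against 0.02 over all 15913 genes, and 87.9% of all genes were called. All 6 co-receptors were called higher, among them Ror2, a Wnt5a receptor (3.04 ± 0.12), and Lrp5 (2.49 ± 0.09). Of 12 ligands tested, 6 were called higher and 5 lower. Wnt6 (3.14 ± 0.26) and Wnt7a (3.08 ± 0.12) were the furthest above Input, and Wnt10a (−3.16 ± 0.33) and Wnt2b (−2.33 ± 0.18) the furthest below. Wnt7a had a mean of 99.88 ± 16.07 CPM in Trap (SD, n = 24) and 11.93 ± 2.96 in Input (SD, n = 8), whereas Wnt6 was scarce, at 1.67 ± 0.56 in Trap. Wnt7b, named after its values were seen, had 173.2 ± 17.92 CPM in Trap and 23.85 ± 5.53 in Input and was also called higher (2.88 ± 0.07). Wls, which carries Wnts to the cell surface, and Porcn, which adds their lipid, were called higher by 1.87 ± 0.07 and 0.49 ± 0.07.

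Among 4 secreted inhibitors tested, Sfrp5 was called higher (3.37 ± 0.10), Sfrp2 (−2.62 ± 0.18) and Frzb (−2.14 ± 0.09) lower, and Sfrp4 neither way. The members of the Sfrp1 family thus did not share a direction. In the R-spondin and receptor turnover list, 6 of 10 genes were called higher, led by the R-spondin receptors Lgr6 (3.22 ± 0.13) and Lgr4 (1.85 ± 0.06), and 4 lower, led by the ligand Rspo2 (−4.45 ± 0.14) and the receptor Lgr5 (−3.43 ± 0.11). Of 12 genes of the cytoplasmic relay, 5 were called higher, with Ctnnb1, the beta-catenin gene (1.66 ± 0.06), and Dvl3 (0.72 ± 0.05) furthest up. The other calls in that list were 6 lower, with Gsk3a (−1.15 ± 0.04) and the neuronal Apc relative Apc2 (−1.12 ± 0.08) furthest down. The 8 nuclear factors were split 4 and 4: Tcf7l1 (2.63 ± 0.09) and Tcf7l2 (2.13 ± 0.11) were the furthest up, Lef1 (−3.76 ± 0.34) and Bcl9 (−1.21 ± 0.06) the furthest down. Of 4 feedback and target genes, Myc was called higher (0.48 ± 0.13) and 3 lower, including Ccnd1, the cyclin D1 gene (−3.27 ± 0.09), and Nkd2 (−1.59 ± 0.12). In planar polarity, Vangl2 (1.62 ± 0.06) and Vangl1 (0.82 ± 0.11) were called higher and 4 of 7 genes lower, with Celsr3 (−3.39 ± 0.11) and Prickle1 (−2.36 ± 0.10) furthest down.

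**Figure D3:**
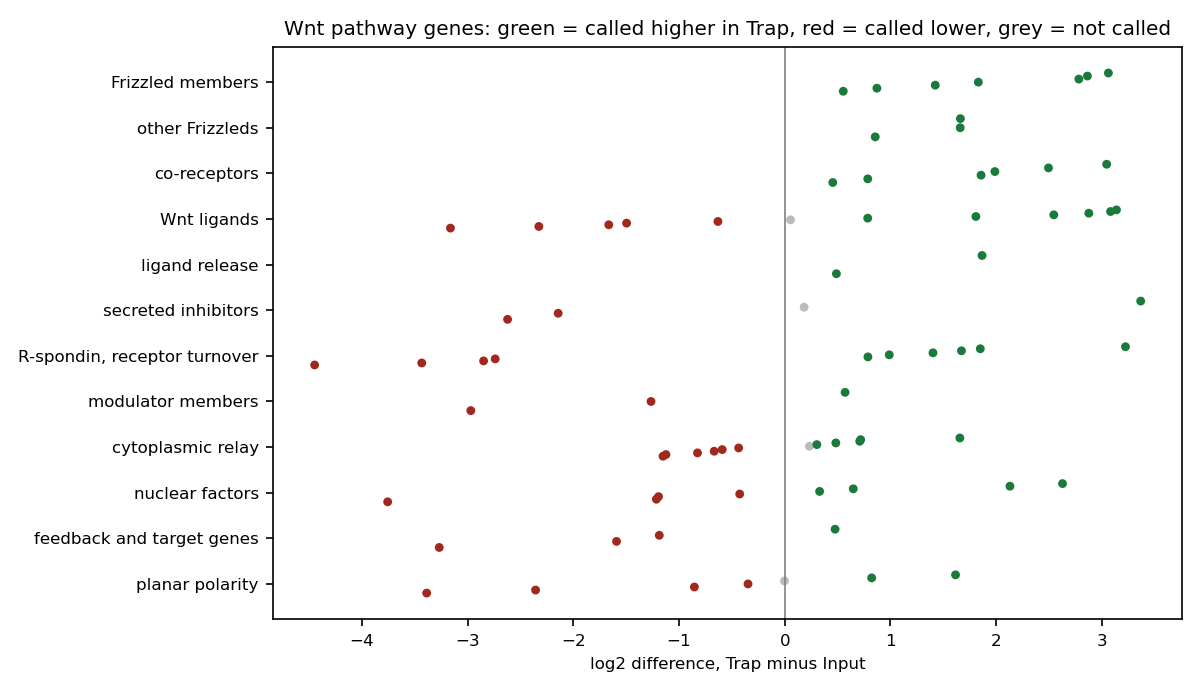
Fitted log2 difference of Trap minus Input for the 10 genes and 68 other Wnt pathway genes, 1 point per gene, grouped by role; green points were called higher, red lower and grey neither way. All Frizzled genes and co-receptors lie to the right of 0, and the other roles hold genes on both sides or are few.

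Across the fracture time course, edgeR called 0 of the 10 genes in the astrocyte libraries at any time, with no term for replicate number. Calls under other settings, among them fits with such a term, are given further below. The fitted differences lay between -0.14 and 0.42 (log2). They were highest for Dkk3, Fzd7, Fzd10 and Axin2 at 3 weeks and for Sfrp1 at 7 weeks. At 3 weeks edgeR called 0 members, where 0.111% of all 15380 genes were called; 3 had an unadjusted p under 0.05, as had 8.64% of all genes, and DESeq2 called 1 (Dkk3) where it called 130 of 13289 genes. At 5 weeks and at 7 weeks edgeR called 0 members and 0% of all genes, DESeq2 also called 0 members, and 0 and 1 members had an unadjusted p under 0.05, as had 2.76% and 2.85% of all genes. The 3 comparisons share the 6 uninjured libraries. The median difference over the 10 genes was 0.17 at 3 weeks, 0.08 at 5 weeks and 0.03 at 7 weeks (log2), against 0.003, −0.002 and 0.004 over all genes.

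Dkk3 had the highest difference in Trap at 3 weeks. The uninjured libraries had 51.82, 62.30 and 51.64 CPM in females and 56.19, 53.57 and 49.38 in males. At 3 weeks they had 81.72, 92.58 and 66.21 in females and 68.09, 70.50 and 56.58 in males. Of the 6, 5 lay above all 6 uninjured libraries, and male replicate 3 lay within their range. How many of all genes had such a pattern was not counted, so nothing is read from it. The difference was 0.42 ± 0.09 (log2 ± SE). At 5 weeks the libraries ran from 50.47 to 59.21 CPM (0.03 ± 0.09) and at 7 weeks from 47.29 to 71.88 (0.11 ± 0.09), against 49.38 to 62.30 uninjured. All 6 libraries at 5 weeks lay within the uninjured range, and at 7 weeks 2 lay above it and 1 below. In Input, Dkk3 had 145.7 and 141.7 CPM uninjured (female, then male) and 152.2 and 146.2 at 3 weeks, a difference of 0.04 ± 0.06. The neuronal marker sum in Trap ran from 295.8 to 936.9 CPM at 3 weeks (median 457.4) and from 383.3 to 610.5 uninjured (median 515.9), and its part in the Dkk3 values was not tested. Without female 3 weeks replicate 3, the library with the highest neuronal sum, the Dkk3 difference was 0.48 ± 0.09. That library had the lowest Dkk3 level of the females at 3 weeks, so the rise follows from leaving it out. The side of the threshold over all genes on which Dkk3 fell depended on the libraries and settings used, and nothing is read from it.

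Among the receptors, Fzd7 and Fzd10 differed the most at 3 weeks, by 0.32 ± 0.11 and 0.32 ± 0.16. Fzd7 had 18.83 to 23.20 CPM in the 6 uninjured libraries (median 20.24), and at 3 weeks 24.16, 28.03 and 19.68 in females and 25.67, 30.78 and 26.37 in males. Of the 6, 5 exceeded every uninjured library, a pattern not counted over all genes, and female replicate 3 fell within the range. That same library was the lowest of its group for Fzd10, which had 41.72, 31.82 and 19.58 CPM in females and 41.69, 36.46 and 33.13 in males, against 20.69 to 33.33 uninjured (median 26.82). Without it the differences were 0.39 ± 0.11 for Fzd7 and 0.45 ± 0.14 for Fzd10, with no call. It held the lowest 3 weeks value of both genes, so the rise follows from leaving it out. The other 5 Frizzled members lay between −0.06 ± 0.09 (Fzd1) and 0.18 ± 0.10 (Fzd9) at 3 weeks. Fzd1, the leading receptor, had group medians of 177.4, 172.9, 188.9 and 179.2 CPM from uninjured to 7 weeks.

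Axin2 had 8.64, 13.01 and 10.82 CPM in the uninjured female libraries and 7.74, 13.26 and 11.30 in the males. At 3 weeks it had 12.24, 14.34 and 12.80 in females and 16.87, 12.76 and 11.32 in males, a difference of 0.30 ± 0.13. Only 2 of the 6 exceeded all uninjured libraries. Its difference was 0.23 ± 0.13 at 5 weeks and −0.04 ± 0.14 at 7 weeks. Sfrp1 went the other way in time, at −0.03 ± 0.19, 0.23 ± 0.18 and 0.42 ± 0.18. It had 2.07 to 3.61 CPM uninjured and 2.58 to 4.75 at 7 weeks, with 2 of the 6 libraries at 7 weeks above the uninjured range. Each Trap library held only 34 to 101 fragments of Sfrp1. At 7 weeks the median marker difference in Trap was 0.161 (log2) for the neuronal, 0.073 for the oligodendrocyte and −0.033 for the astrocyte list, with no marker called. The part of other cell types in the Sfrp1 values was not tested.

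**Figure D4:**
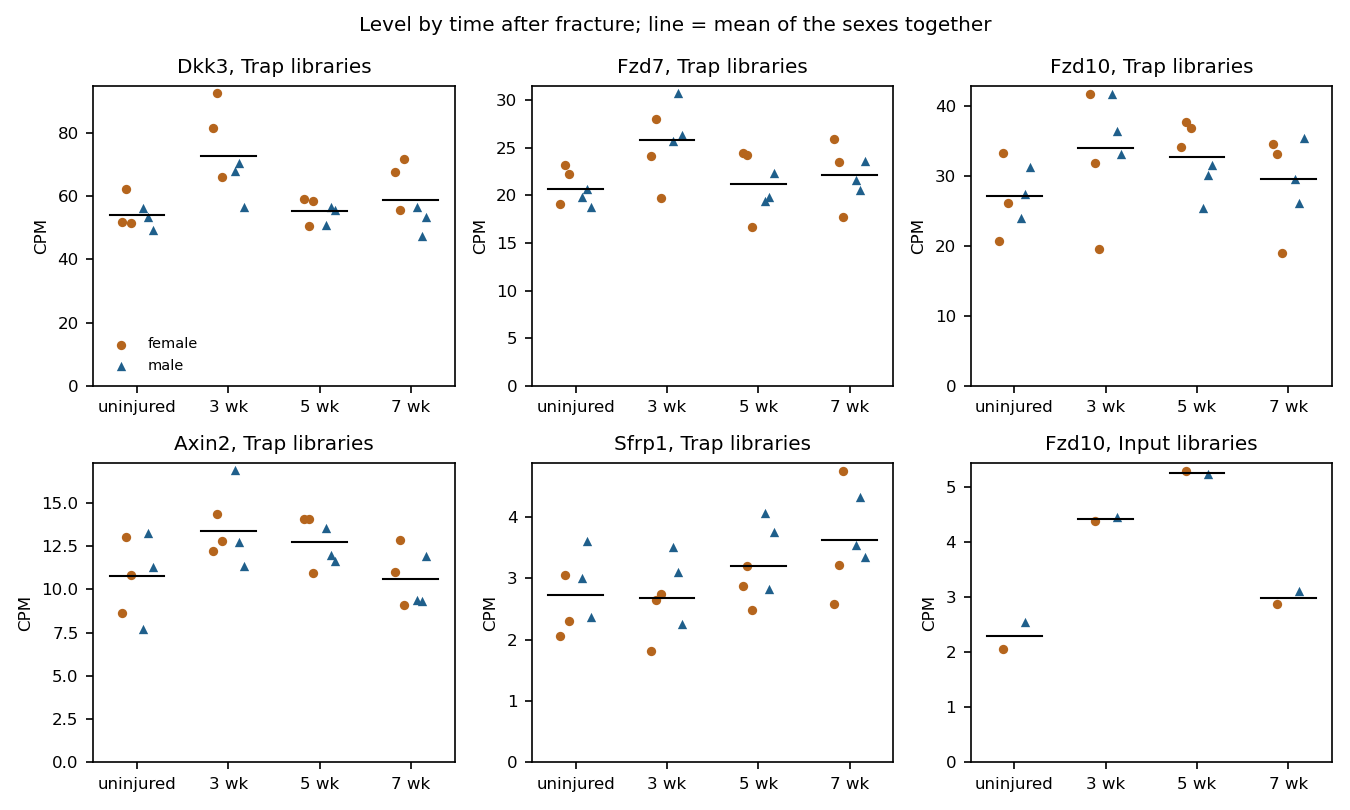
CPM of Dkk3, Fzd7, Fzd10, Axin2 and Sfrp1 in the Trap libraries (6 per state) and of Fzd10 in Input (2 per state), on linear axes from 0; circles are female and triangles male libraries, and lines are means of both sexes. At 3 weeks, 5 of 6 Trap libraries lie above all uninjured ones for Dkk3 and for Fzd7, a pattern not counted over all genes. The Fzd10 Input libraries at 3 and 5 weeks lie above those at other times.

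Between 7 and 3 weeks in Trap, 8 of the 10 differences were negative and 0 were called (0.0195% of all genes were called; 5 members had an unadjusted p under 0.05, as had 7.93% of all genes, and DESeq2 called 0). Over all genes 52.4% of the differences were positive. They included Axin2 (−0.34 ± 0.13), Dkk3 (−0.31 ± 0.09) and Fzd2 (−0.30 ± 0.12). The positive values were those of Sfrp1 (0.45 ± 0.18) and Fzd5 (0.12 ± 0.13). This comparison shares its libraries with those against uninjured cord.

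In the 66 other Wnt genes tested in Trap, 0 were called at 3, 5 or 7 weeks by edgeR. An unadjusted p under 0.05 was reached by 10, 1 and 1 of them, as by 8.64%, 2.76% and 2.85% of all genes, and DESeq2 called 2, 0 and 0. Their median differences were 0.02, 0.03 and 0.01 (log2). The smallest p-values at 3 weeks belonged to Apcdd1, an inhibitor that binds Wnts and Lrp5 (0.42 ± 0.10, edgeR adjusted p = 0.0918), and the repressor Tcf7l1 (0.42 ± 0.10, adjusted p = 0.0962). Apcdd1 had 38.53 to 52.49 CPM at 3 weeks (median 43.71) against 24.87 to 42.05 uninjured (median 33.04), and Tcf7l1 had 14.10 to 20.89 (median 18.45) against 12.67 to 14.66 (median 13.55). The 2 DESeq2 calls were these genes. The Frizzled genes outside the set, Fzd4, Fzd6 and Fzd8, lay between -0.18 ± 0.13 and 0.15 ± 0.12 over the 3 times, with no call.

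In whole cord, Fzd10 had the highest fitted differences of the 10 genes at 3 and 5 weeks. Its Input levels were 2.05 and 2.55 CPM uninjured (female, then male), 4.38 and 4.45 at 3 weeks, 5.27 and 5.23 at 5 weeks, and 2.87 and 3.11 at 7 weeks. Both sexes had higher values at all 3 times, with the highest at 5 weeks. The differences were 0.93 ± 0.21, 1.20 ± 0.21 and 0.39 ± 0.24, called at 3 and 5 weeks, where 0.434% and 0.101% of all 16803 genes were called higher. With 2 libraries per state, leaving out any 1 of the 4 compared took the gene below the threshold at both times, and DESeq2 made neither call, so the values stand as a description. The summed level of 5 ependymal markers in Input was also higher at 3 and 5 weeks, from 27.69 and 32.02 CPM uninjured (female, then male). It was 33.56 and 38.87 at 3 weeks, 33.69 and 38.86 at 5 weeks and 34.03 and 31.76 at 7 weeks, with no marker called. In females that sum was thus highest at 7 weeks, where Fzd10 was lower than at 3 and 5 weeks. At 3 weeks the median marker difference in Input was 0.22 (log2) for ependymal and microglial and 0.21 for endothelial and blood lists. The oligodendrocyte, precursor, astrocyte and Schwann medians were below 0 there. At 5 weeks the ependymal median was 0.206, blood 0.138, microglial 0.045 and endothelial 0.019. The part of any of these cell types in the Fzd10 values was not tested. In Trap, Fzd10 differed by 0.32 ± 0.16 and 0.26 ± 0.16 at 3 and 5 weeks. The change in Trap and that in Input were not tested against each other.

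Of the other 9 members in Input, 0 were called at 3, 5 or 7 weeks, where 1.08%, 0.107% and 0.214% of all genes were called. An unadjusted p under 0.05 was reached by 2, 0 and 1 of them, as by 13.9%, 8.49% and 5.87% of all genes, and DESeq2 called none. Fzd7 had −0.46 ± 0.16 at 3 weeks in Input, with 10.81 and 8.37 CPM uninjured and 7.22 and 6.84 at 3 weeks, opposite in sign to its Trap value. Dkk3 stayed within 136.8 to 152.2 CPM in all 8 Input libraries. Among 73 other Wnt genes, Wnt7a rose at 3 weeks by 0.67 ± 0.13 (edgeR adjusted p = 0.0148), from 7.04 and 10.92 CPM to 12.99 and 15.70. That call was lost without either the uninjured or the 3 weeks female library. At 5 and 7 weeks edgeR and DESeq2 called 0 of the 73, and 9 and 2 had an unadjusted p under 0.05.

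**Figure D5:**
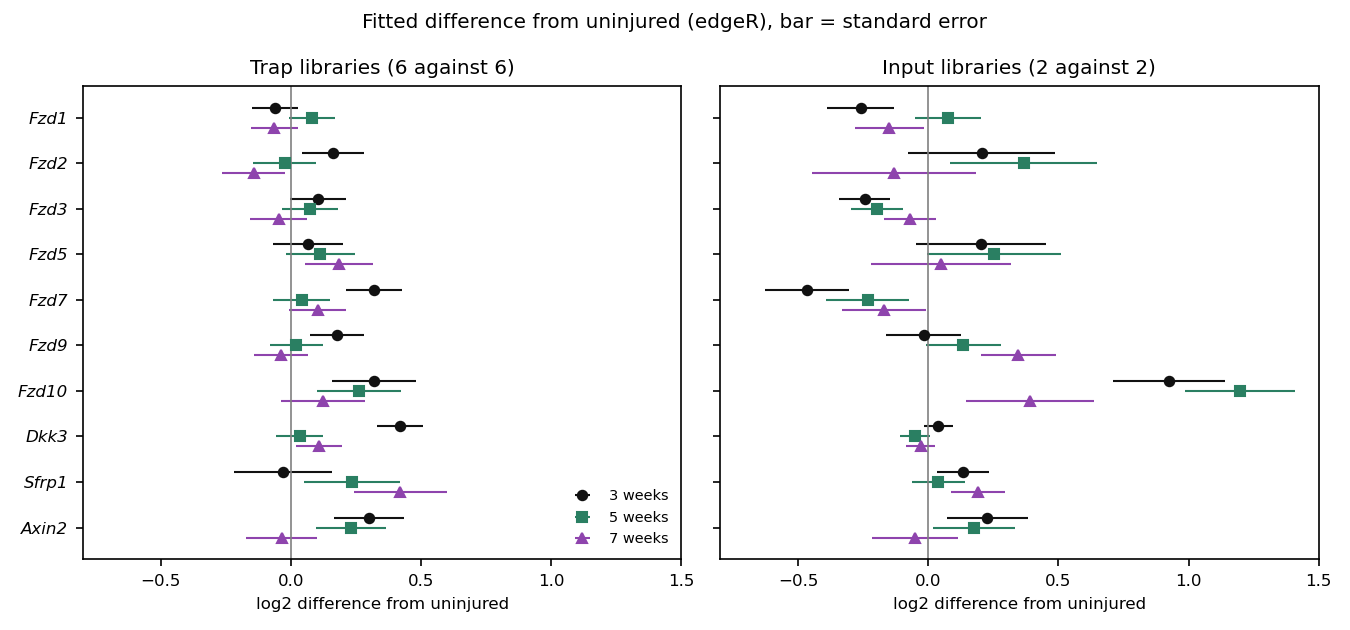
Fitted log2 difference from uninjured (points) with its standard error (bars) for the 10 genes at 3, 5 and 7 weeks, in Trap (6 against 6 libraries) and Input (2 against 2). In Trap the highest values are 0.42 for Dkk3 at 3 weeks and for Sfrp1 at 7 weeks, and in Input the Fzd10 values of 0.93 and 1.20 lie apart from the rest.

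The rule that lists the genes does not use sex, so the sexes were tested, although which values were looked at is not recorded. The headers of the Trap columns do not say whether the sexes were prepared together. For replicates 2 and 3 they share a prefix and number between the sexes apart from a sex letter. For replicate 1 they differ in form, like those of Input. Any difference in preparation between the sexes could not be told apart from sex in Trap either. Between males and females in Trap (12 against 12 libraries), 0 of the 10 genes were called, where 0.195% of all genes were called; 2 had an unadjusted p under 0.05, as had 9.79% of all genes, and DESeq2 called 0. Those were Dkk3, lower in males by −0.18 ± 0.06 (edgeR adjusted p = 0.324), and Fzd1, by −0.14 ± 0.06 (adjusted p = 0.468). The female and male means were 64.14 ± 12.86 and 56.21 ± 6.85 CPM for Dkk3 and 186.1 ± 19.13 and 168.5 ± 20.21 for Fzd1 (SD), and the ranges overlapped. The 95% intervals of the sex difference, male minus female, were −0.31 to −0.05 for Dkk3, −0.28 to −0.01 for Fzd1 and −0.23 to 0.17 for Axin2 (log2). The widest was that of Sfrp1, −0.04 to 0.51. Of the 66 other Wnt genes 0 were called by edgeR or DESeq2, and 3 had an unadjusted p under 0.05.

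The sexes were also compared in their response to fracture, as the male minus the female difference from uninjured. At 3, 5 and 7 weeks, edgeR and DESeq2 called 0 of the 10 genes, and 0 had an unadjusted p under 0.05; 0% of all genes were called by edgeR at each time. For Dkk3 at 3 weeks the female and male log2 ratios of means were 0.54 and 0.29, and the fitted sex difference was −0.25 with a 95% interval of −0.62 to 0.12 (edgeR adjusted p = 1). For Fzd7 at 3 weeks they were 0.16 and 0.48, with a sex difference of 0.32 (−0.13 to 0.77, adjusted p = 1). The intervals span differences as large as the responses themselves.

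Within groups, some receptors varied together across the 24 Trap libraries. After the mean of each sex and state was taken off log2 CPM, Pearson's r was 0.60 between Fzd7 and Fzd10, 0.53 between Fzd9 and Fzd10 and 0.53 between Fzd1 and Fzd3. Fzd7 also followed the astrocyte marker sum (r = 0.69) and the mural and fibroblast sum (r = 0.69). It ran against the endothelial (r = −0.66) and neuronal sums (r = −0.45). In the mural and fibroblast list 3 of 7 genes were called higher in Trap and 4 lower, so its sum does not speak for every gene in it. Against the neuronal sum, r was −0.66 for Fzd9, −0.66 for Fzd10 and −0.59 for Fzd1, and −0.08 for Fzd3. The part of these other cell types in the correlations between receptors was not tested. The 24 libraries include the 2 that stood apart. Female 3 weeks replicate 3 had the highest neuronal sum, 936.9 CPM. It was also the lowest of its group for Fzd7 (19.68 CPM) and Fzd10 (19.58 CPM). Male 7 weeks replicate 2 had Fzd3 at 37.25 CPM and Fzd1 at 126.5 CPM, the lowest Trap level of each gene. The part of these 2 libraries in the correlations was not tested. These libraries share depth, purity and preparation, and the values are given as a description. Of 10480 genes with a mean of at least 5 CPM, those most like Axin2 were Zfp318 (0.77), Zfp467 (0.76) and Foxn2 (0.71), and those most like Fzd1 were Wdr33 (0.88), Ppp1r37 (0.85) and Bcl2 (0.83).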

How the data were processed

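The authors deposited a table of estimated counts per gene from RSEM, made with FastQC, Trim Galore, STAR and RSEM on GRCm38, per the submitters' processing notes; tool versions, strand setting and the annotation release are not given in the sources used here. Libraries were poly-A selected, per the labels' protocols. Between 6.21% and 8.53% of a library's values were not whole, so estimated counts were rounded. Rows without a symbol (797 of 55938, 0.301% of counts) were kept. Counts were fitted over all genes with edgeR 4.0.16 (R 4.3.3, limma 3.58.1): filterByExpr, TMM scaling, robust quasi-likelihood test, Benjamini-Hochberg adjustment, and a call at adjusted p under 0.05. The first fit held the 8 Trap groups, another the 8 Input libraries (sex and state as additive terms, 3 residual degrees of freedom), and another all 32 libraries for Trap against Input. Intervals at 95% are the estimate ± SE times the t value at the residual degrees of freedom (16 in Trap). DESeq2 1.42.0, DESeq2 size factors, no filter, leaving out libraries and replicate blocks were alternatives.

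The members and lists were chosen with earlier results of these data known. The text names all members, Fzd4, Fzd6 and Fzd8, up to 2 genes called higher and 2 lower per pathway list in Trap against Input, any called gene elsewhere or else the 2 smallest p-values, and the 3 genes most like Axin2 and Fzd1. Gene lengths are exon unions from GENCODE M21 (GRCm38), not RSEM effective lengths. Promoter windows are RefSeq's, 250 bases before to 50 after the start. Expression of sex-linked genes matched the sex label in 32 of 32 libraries. No same-group libraries were identical (24 pairs checked).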

Additional observations from a re-analysis of the deposited data

Results flagged for a closer look

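Fzd3 in male 7 weeks Trap replicate 2 stood at 37.25 CPM, far below the other 5 libraries of that state, which had 70.62 to 83.06 CPM. The gap was 0.728 of the whole range of the 6 libraries, above the limit of 0.625 for 6 values. It was the only such gap among 50 groups of member values examined, and chance alone gives about 1 in 20. Without this library, the fitted difference of Fzd3 at 7 weeks was 0.08 ± 0.07 in place of −0.05 ± 0.11 (log2 ± SE), and the sex difference of that response was −0.15 ± 0.13 in place of −0.41 ± 0.22. The part of the tilt with gene length in this value was not tested.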

How the results depend on the processing

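No direction of a called gene reversed under any alternative. In Trap against Input, all 10 members were called in the same direction in every setting run; scaling by DESeq2 size factors moved the median of all genes from 0.02 to −0.08 (log2). Among named genes, Myc lost its call in the paired fit of libraries numbered 1. In Trap at 3 weeks, the count of members called went from 0 to 1, always Dkk3, with no filter on low counts, with the DESeq2 test, with the replicate number as a block, with a replicate block within each sex (added after seeing the data) and without the 2 Trap libraries that stood apart. Leaving out 1 library at a time gave 0 to 1; the call appeared without female uninjured replicate 2, female 3 weeks replicate 3 or male 3 weeks replicate 3. Other Wnt genes called there went from 0 to 1 with no filter and with either block (Apcdd1), 2 with DESeq2 (Apcdd1 and Tcf7l1) and 3 without the 2 libraries (with Wnt5b), and 0 to 3 with 1 library left out. Between 7 and 3 weeks they went from 0 to 2 with DESeq2 (Apcdd1 and Wnt5b), 1 without the 2 libraries (Wnt5b), and 0 to 1 with 1 library left out. In Input, the 1 member called at 3 weeks (Fzd10) fell to 0 with DESeq2 size factors, with the DESeq2 test and without any 1 of the 4 libraries; at 5 weeks it fell to 0 with the DESeq2 test and without any 1 library. The Wnt7a call gave 0 to 1 with 1 library left out. The cause was not tested, except that leaving out an Input library leaves 1 in that state, assumed to vary like the others.

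Counts over all genes moved too. Trap calls at 3 weeks were 17, 34 with no filter, 130 with DESeq2, 44 and 80 with the blocks, 106 without the 2 libraries and 3 to 47 with 1 left out. Between 7 and 3 weeks they were 3, 9, 57, 11, 45 and 51, and 0 to 38, and 0 with only the groups compared. Between the sexes they were 30, 88 with DESeq2, and 18 to 47. In Input with 1 library left out they were 34 to 201, 7 to 49 and 16 to 50 at 3, 5 and 7 weeks.

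The labels do not say what a replicate number marks. Within each sex the number follows the series of the column headers, and each Trap series holds every injury state. What a series stands for is not given. The deviations of same-sex, same-number Trap libraries had a median r of 0.154 over 36 pairs, 23 of them over 0.1, against −0.062 over 72 same-sex pairs of different number, 10 of them over 0.1. Of 24 libraries, 20 correlated best with their own number, a hint from the data that the numbers may pair libraries within a sex, but not every pair was over 0.1, so the block was kept as an alternative. The replicate block changed the member count only at 3 weeks in Trap. The Input fit has sex as a term and 1 library per sex and state, all numbered 1, so it already compares libraries within each sex.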

Other observations

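Beyond the calls, several other pathway genes had the smallest p-values of the Wnt genes in their comparison and missed the threshold. In Trap between 7 and 3 weeks, Wnt5b, a ligand of the beta-catenin-independent branch, differed by −0.77 ± 0.17 (log2 ± SE, edgeR adjusted p = 0.129), with 2.56 to 3.34 CPM at 7 weeks, 3.56 to 7.58 at 3 weeks and 2.91 to 4.10 uninjured. The 7 and 3 weeks ranges did not overlap. How many of all genes this held for was not counted, so nothing is read from it. Apcdd1 differed by −0.41 ± 0.10 in the same comparison (adjusted p = 0.179). In Input, Apcdd1 differed by 0.42 ± 0.11 at 5 weeks (adjusted p = 0.272), and Wnt7a by 0.52 ± 0.13 at 5 weeks (adjusted p = 0.246) and 0.37 ± 0.14 at 7 weeks (adjusted p = 0.663). Against uninjured Trap libraries, Pygo2 differed by −0.18 ± 0.08 at 5 weeks, Wnt2b by −1.08 ± 0.47 at 7 weeks, and Tcf7l1 by 0.21 ± 0.10 at both times (all adjusted p = 1). Between the sexes in Trap, male minus female, Bcl9l differed by 0.23 ± 0.09 (adjusted p = 0.411) and Lrp6 by −0.22 ± 0.09 (adjusted p = 0.417).

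The tilt of the Input libraries with gene length was graded. The median male minus female difference (log2) was 0.17 for 2698 genes with under 2 kb of exons, 0.12 for 5252 genes of 2 to 4 kb, 0.02 for 6012 of 4 to 8 kb, −0.14 for 1842 of 8 to 12 kb and −0.34 for 873 over 12 kb. Fzd3, at −0.89, lay at percentile 1.94 of all genes, below the median of its own length class.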
